A study of Mus musculus with 24 samples.

Results

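Angiogenin (Ang), its neighbour Rnase4 and their inhibitor Rnh1 were followed in the livers of mice kept on 4 diets. They are 3 of the 18194 genes named by the array's annotation. Every probe set assigned to 1 of these 3 genes was taken, which gave 5 of the 45101 probe sets in the table. Ang is read by 3 probe sets (1450717_at, 1438937_x_at and 1438936_s_at), Rnase4 by 1 (1422603_at) and Rnh1 by 1 (1451201_s_at). The genes were chosen with diet results of these arrays known, so their differences between diets are given as values with standard errors and without a test.

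RNA came from the livers of 24 female mice of strain NMR1 (written NMR-1 in the sample records), described as genetically identical. They were 8 weeks old at the start and ate 1 diet for 2 weeks: the chimpanzee diet of vegetables, fruit and yogurt, the fast food diet from McDonald's, the cafeteria diet of cooked meals from an institute canteen, or the pellet diet on which all of them had been raised. Each diet was given to 6 mice, 3 in each of 2 processing batches, with 1 array per mouse. The cafeteria and fast food diets together make up the human diets (12 mice). The methods state that litters were divided among the diets, but mice of 1 litter cannot be traced in the labels.

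Angiogenin is a small secreted ribonuclease of the RNase A family that hepatocytes release into the blood. It was named for its ability to induce vessel growth, and in stressed cells it cuts tRNA in the anticodon loop. Rnase4 is a secreted family member with a preference for cutting after uridine. In the mouse the Ang and Rnase4 genes lie together, share upstream promoters and noncoding first exons, and splice these to separate coding exons. Rnh1 encodes the ribonuclease inhibitor, a leucine-rich repeat protein of the cytosol that binds RNase A family enzymes, angiogenin among them, very tightly.

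The sequences before the transcription starts are shown because Ang and Rnase4 share one of them. RefSeq (GRCm38.p6) places Ang at chr14:51091077-51102009 and Rnase4 at chr14:51091077-51106151, both on the plus strand and with the same first base. Rnh1 lies at chr7:141160326-141172851 on the minus strand. The RefSeq promoter table had entries for all 3 genes, and the 250 bases before a start were read from it. Of the 32817 windows of this length in the table, 34 were listed for more than 1 gene, and the window of Ang and Rnase4 at chr14:51090827-51091076 was one of these. Rnase4 has another window of its own at chr14:51095750-51095999. Rnh1 has 3 windows, of which the outermost, chr7:141172852-141173101, is shown for comparison. All are written 5′ to 3′ on the strand of the gene, and capitals mark motif matches on either strand.
Ang and Rnase4, shared start: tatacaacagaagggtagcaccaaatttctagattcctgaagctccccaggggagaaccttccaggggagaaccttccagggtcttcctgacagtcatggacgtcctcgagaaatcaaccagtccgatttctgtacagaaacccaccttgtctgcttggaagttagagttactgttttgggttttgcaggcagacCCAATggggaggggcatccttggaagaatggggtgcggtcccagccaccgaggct
Rnase4, second start: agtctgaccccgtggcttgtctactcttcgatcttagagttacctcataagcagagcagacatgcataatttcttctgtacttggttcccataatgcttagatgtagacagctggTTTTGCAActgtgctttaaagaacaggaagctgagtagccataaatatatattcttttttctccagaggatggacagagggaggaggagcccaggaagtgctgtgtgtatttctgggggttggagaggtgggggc
Rnh1, outermost start: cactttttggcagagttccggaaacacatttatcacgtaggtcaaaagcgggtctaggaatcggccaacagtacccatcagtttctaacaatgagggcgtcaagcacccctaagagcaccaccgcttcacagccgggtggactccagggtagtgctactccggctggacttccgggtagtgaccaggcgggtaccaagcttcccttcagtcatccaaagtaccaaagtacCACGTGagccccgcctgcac

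Searched on both strands were 8 short motifs: the TATA box (TATAAA), the GC box (CCGCCC), the CCAAT box (CCAAT), the E-box (CACGTG), a C/EBP motif (TTGCNNAA), an HNF4 motif (CAAAGTCCA), an AP-1 motif (TGANTCA) and a GATA motif (AGATAA). None of the matches shown overlap. The shared window held 1 match, to the CCAAT box, 55 bases before the start, a motif found in 33.8% of all windows. The second Rnase4 window held 1 match to the C/EBP motif (9.57% of all windows), and the Rnh1 window shown held 1 match to the E-box (6.02% of all windows). The G and C content was 52.4% in the shared window, equal to the median of all windows, 46% in the second Rnase4 window and 55.2% in the Rnh1 window. These matches describe letters only.

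Expression is given on the deposited log2 scale, on which 1 unit is a doubling, and levels are compared within a probe set only. All 5 probe sets passed the filter on low values, which asked that 6 or more of the 24 arrays exceed 3.147, the overall median, and 25541 probe sets passed in all. The lowest correlation between any pair of arrays was 0.925, and no pair of arrays was identical. The upper end of the array values, taken as the 90th percentile, was 6.51 ± 0.07 (SD, n = 12) in batch 1 and 6.05 ± 0.20 (SD, n = 12) in batch 2. Of 10 hepatocyte markers, 9 had a probe set and all of these passed the filter. The mean of the hepatocyte list lay between 11.52 and 11.68 in the 4 diets. Of 4 adipocyte markers, the 2 with a probe set (Adipoq and Lep) did not pass.

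By probe set 1450717_at, Ang expression was high on the cafeteria and chimpanzee diets and low on the fast food and pellet diets. The cafeteria mice ranged from 9.10 to 9.70 with a median of 9.34. The chimpanzee diet mice ranged from 8.73 to 9.37 with a median of 9.24. Every cafeteria mouse lay above every fast food mouse and above every pellet mouse. The fast food mice ranged from 8.02 to 8.81 with a median of 8.76, and the pellet mice from 8.04 to 8.81 with a median of 8.54. The latter pair of diets overlapped almost completely.

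**Figure D1:**
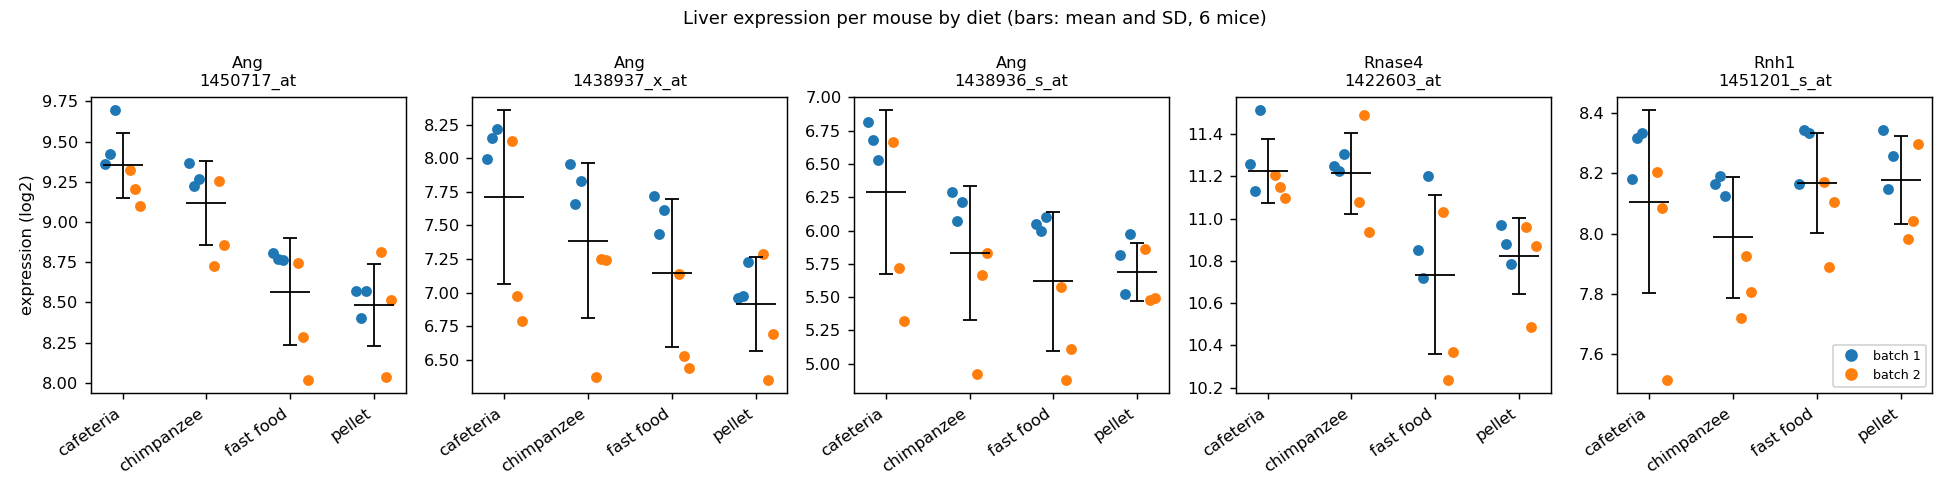
Liver expression (log2) of the 3 Ang probe sets, Rnase4 and Rnh1 in each mouse, by diet on the horizontal axis and with batch in colour; the bars are the mean and SD of 6 mice. In the Ang panel at the left (1450717_at) the 6 cafeteria mice, at 9.10 or above, all lie over the fast food and pellet mice, at 8.81 or below.

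The mean level of Ang (1450717_at) was 9.35 ± 0.20 (SD, n = 6) on the cafeteria diet and 9.12 ± 0.26 on the chimpanzee diet, against 8.57 ± 0.33 on fast food and 8.49 ± 0.26 on pellets. In this order, the neighbours cafeteria and chimpanzee differed by 0.23 ± 0.12 (SE) and the neighbours fast food and pellet by 0.08 ± 0.12. The residual SD between mice was 0.22. The step in the middle was larger, at -0.55 ± 0.12 (SE) for fast food minus chimpanzee. The human diets held the top and the third place, with the chimpanzee diet between them.

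The widest gaps in Ang were those between the cafeteria diet and the 2 low diets. Relative to pellets, the cafeteria diet had 0.87 ± 0.12 (SE) more on the log2 scale, which is 1.82-fold. The difference of fast food minus cafeteria was -0.79 ± 0.12 (1.72-fold), with -0.71 in batch 1 and -0.86 in batch 2. The groups were apart within each batch as well as over all mice, which held for 10% of all probe sets in batch 1 and 4.37% in batch 2. The chimpanzee diet exceeded pellets by 0.63 ± 0.12 (1.55-fold), with 0.77 in batch 1 and 0.49 in batch 2, and here the groups were apart in batch 1 (24.8% of all probe sets) and overlapped in batch 2 (19.1% were apart).

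Of the 5 probe sets, 1 (Ang 1450717_at) had no overlap between the 6 fast food and the 6 cafeteria mice, where 0.0822% of all 25541 probe sets had none. Between cafeteria and pellet mice there was no overlap for 2 of the 5 (Ang 1450717_at and Rnase4), where 1.35% of all had none. In the other 4 pairs of diets each of the 5 overlapped. There, the share of all probe sets without overlap was 0.38% for cafeteria against chimpanzee, 0.423% for fast food against chimpanzee, 1.11% for fast food against pellet and 2.81% for chimpanzee against pellet. Since the genes were chosen on these contrasts, the counts are a description.

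The other Ang probe sets gave the cafeteria diet the highest mean too, with more spread. Probe set 1438937_x_at had means of 7.71 ± 0.65 (SD, n = 6) on cafeteria, 7.39 ± 0.58 on chimpanzee, 7.15 ± 0.55 on fast food and 6.92 ± 0.35 on pellet food. Probe set 1438936_s_at had means of 6.29 ± 0.62, 5.83 ± 0.50, 5.62 ± 0.52 and 5.69 ± 0.22 in the same order of diets, so that fast food and pellets changed places. Fast food minus pellet was 0.54 in batch 1 and -0.07 in batch 2 for 1438937_x_at, and 0.27 and -0.42 for 1438936_s_at. The suffix _x_at marks probes that may cross-hybridise, and _s_at marks probes that may read several transcripts. Where the probes of each set lie in the Ang transcripts was not used here.

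Much of that spread came from batch 2. For 1438937_x_at the 3 cafeteria mice of batch 1 had 7.99, 8.15 and 8.22, and those of batch 2 had 8.13, 6.98 and 6.79. For 1438936_s_at the same mice had 6.82, 6.68 and 6.53 in batch 1 and 6.66, 5.72 and 5.32 in batch 2. A single cafeteria mouse of batch 2 thus kept the level of batch 1 in both. The fast food minus cafeteria difference was -0.56 ± 0.21 (SE) for 1438937_x_at and -0.67 ± 0.19 for 1438936_s_at, and both batches had the sign of 1450717_at, at -0.53 and -0.59 for the former and -0.63 and -0.71 for the latter. The chimpanzee minus pellet difference was less alike over the 3 probe sets, at 0.47 ± 0.21 for 1438937_x_at and 0.14 ± 0.19 for 1438936_s_at, and for the latter it was 0.42 in batch 1 and -0.14 in batch 2.

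Rnase4 followed the same division of the diets. The cafeteria mice ranged from 11.10 to 11.51 with a median of 11.18, and the chimpanzee diet mice from 10.94 to 11.49 with a median of 11.24. The fast food mice ranged from 10.24 to 11.20 with a median of 10.78, and the pellet mice from 10.49 to 10.97 with a median of 10.87. Each cafeteria mouse exceeded each pellet mouse, while 1 fast food mouse of batch 1 (11.20) reached into the range of the cafeteria mice.

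The mean of Rnase4 was 11.23 ± 0.15 (SD, n = 6) on the cafeteria diet and 11.21 ± 0.19 on the chimpanzee diet, a difference of 0.01 ± 0.12 (SE). It was 10.82 ± 0.18 on pellets and 10.74 ± 0.37 on fast food, a difference of -0.09 ± 0.12 for fast food minus pellet. Both of these neighbouring pairs differed by less than the SE of their difference, and the residual SD between mice was 0.23. Across the middle of the order, Rnase4 was 0.40 ± 0.12 higher on cafeteria food than on pellets (1.32-fold) and 0.39 ± 0.12 higher on the chimpanzee diet than on pellets (1.31-fold). The fast food minus cafeteria difference was -0.49 ± 0.12 (1.4-fold), with -0.38 in batch 1 and -0.60 in batch 2.

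Pooling the human diets set a high and a low group side by side. The human minus chimpanzee difference was -0.16 ± 0.18 (SE) for Ang 1450717_at and -0.23 ± 0.15 for Rnase4, while Ang 1438937_x_at (0.04 ± 0.20) and Ang 1438936_s_at (0.12 ± 0.21) had the opposite sign. The human minus pellet difference was 0.47 ± 0.19 for Ang 1450717_at and 0.16 ± 0.15 for Rnase4. With the 12 human diet mice pooled, the residual SD of Ang 1450717_at was 0.40 over the 18 mice compared in human minus chimpanzee. It was 0.22 in the model of all 24 mice, where the 4 diets were kept apart.

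Rnh1 levels were close together in the 4 diets. The fast food mice ranged from 7.89 to 8.34 (median 8.17), the pellet mice from 7.98 to 8.34 (median 8.20), the chimpanzee diet mice from 7.72 to 8.19 (median 8.02) and the cafeteria mice from 7.52 to 8.33 (median 8.19). All 4 ranges overlapped. The means were 8.18 ± 0.15 (SD, n = 6) on pellets, 8.17 ± 0.17 on fast food, 8.11 ± 0.30 on cafeteria food and 7.99 ± 0.20 on the chimpanzee diet. The chimpanzee minus pellet difference was -0.19 ± 0.09 (SE), where the residual SD was 0.16. It was -0.09 in batch 1, and -0.29 in batch 2, where the groups did not overlap, as held for 19.1% of all probe sets. After quantile normalization of the deposited values it was -0.06 ± 0.07, with the 90th percentile as covariate -0.10 ± 0.07 and with the beta-actin control difference -0.10 ± 0.14. The fast food minus cafeteria difference was 0.06 ± 0.09. The cafeteria mouse at 7.52 was also the array with the lowest 90th percentile of all 24, at 5.67. Without that mouse the fast food minus cafeteria difference of Rnh1 was -0.03. Without the 4 arrays of lowest 90th percentile it was 0.00, and that of Ang 1450717_at was -0.78 and that of Rnase4 -0.42.

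**Figure D2:**
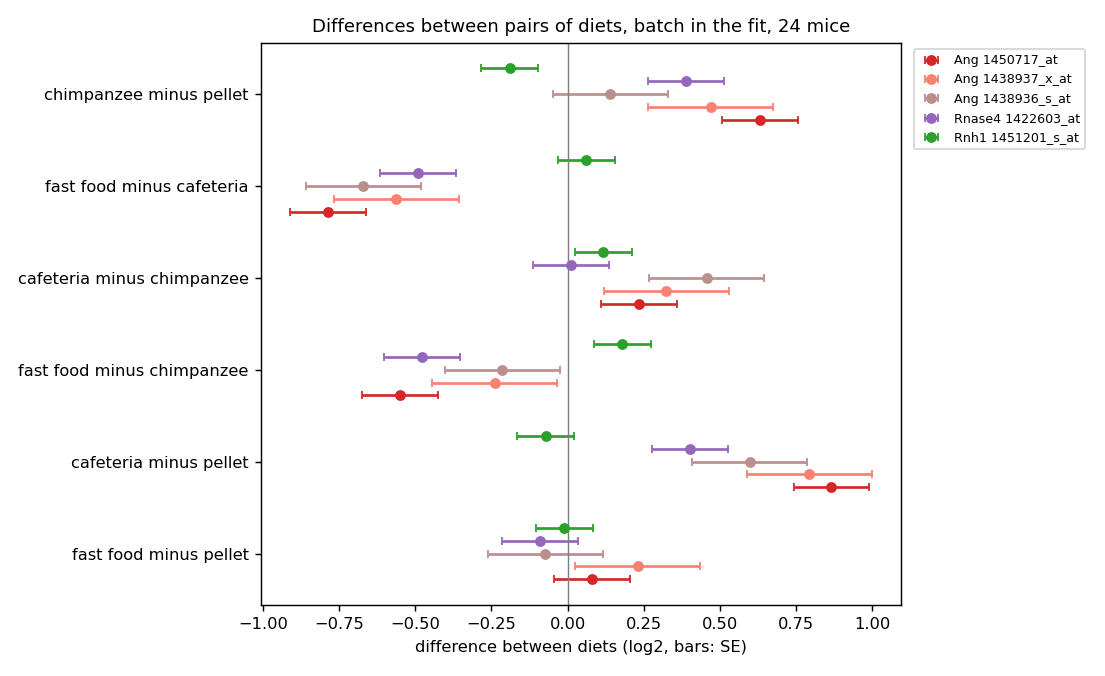
Differences between pairs of diets (horizontal axis, log2) for the 5 probe sets, from 1 model of 24 mice with diet and batch; points are estimates and bars are SE. In fast food minus cafeteria, the Ang and Rnase4 points lie between -0.79 and -0.49 and Rnh1 is at 0.06.

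Ang and Rnase4 also varied together from mouse to mouse. After the mean of each batch was subtracted, Pearson's r between Ang 1450717_at and Rnase4 was 0.87 and Spearman's rho 0.88 over the 24 mice, with r = 0.83 within batch 1 and 0.91 within batch 2 (12 mice each). Without the 2 mice farthest from the median of Ang, r was 0.82. With the diet means taken out as well it was 0.78. Of the 12600 other named genes, 0 had a higher r with Ang 1450717_at than Rnase4 had. These values are over mice that share a diet and an array each, both genes were chosen on the diets, and 10 pairs of the 5 probe sets were computed, so they carry no test.

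The values of Ang 1450717_at and Rnase4 with the inhibitor were nearer to 0. The r between Ang 1450717_at and Rnh1 was -0.13 (rho -0.03), and between Rnase4 and Rnh1 it was -0.10 (rho -0.07). With the diet means also removed these became 0.33 and 0.35. The other Ang probe sets had r of 0.65 (1438937_x_at) and 0.57 (1438936_s_at) with Rnase4, below the 0.87 of 1450717_at. Their r with Rnh1 was 0.17 and 0.31. With the diet means also removed, r with Rnh1 was 0.46 for 1438937_x_at and 0.58 for 1438936_s_at. Their r with Rnase4 was then 0.48 and 0.35, so these probe sets did not set Rnase4 apart from Rnh1 as 1450717_at did. Among the Ang probe sets, r with 1450717_at was 0.82 for 1438937_x_at and 0.71 for 1438936_s_at, and the latter pair had r = 0.91 with each other.

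**Figure D3:**
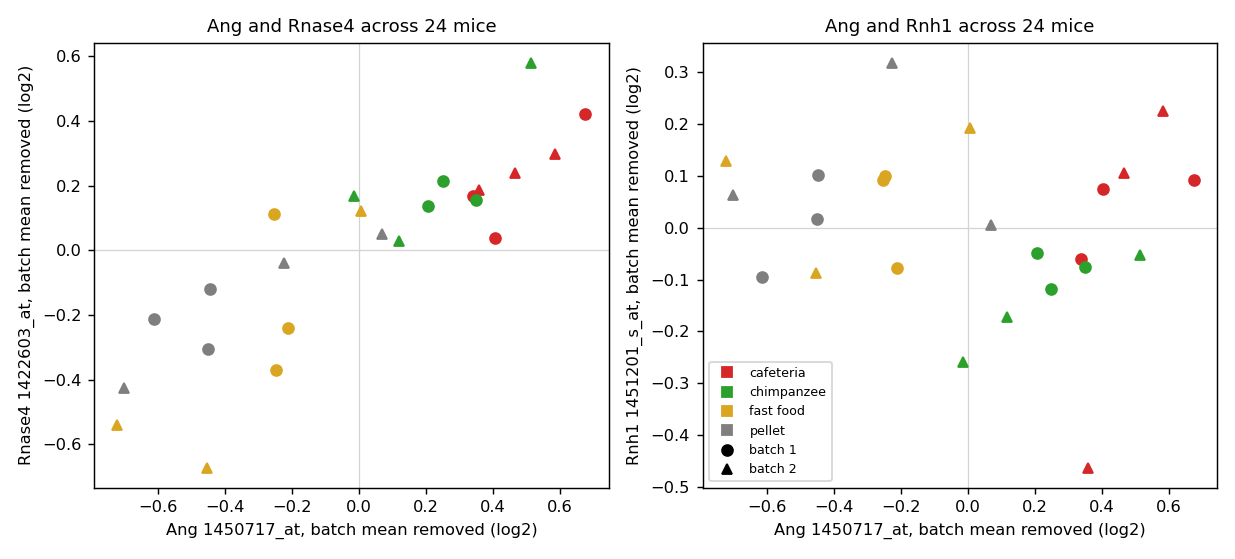
Rnase4 (left) and Rnh1 (right) against Ang 1450717_at in 24 mice, each with its batch mean removed (log2); colour gives the diet and shape the batch. The points for Rnase4 rise along a line (r = 0.87), with cafeteria and chimpanzee mice at the upper right and most fast food and pellet mice at the lower left, and those for Rnh1 do not (r = -0.13).

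A measure of RNA integrity moved with Ang 1450717_at and Rnase4, and less with the other Ang probe sets. The difference between the array's 3′ and 5′ control probe sets for beta-actin, which grows as RNA is degraded or copied short, was 1.08 ± 0.15 (SD, n = 6) on the chimpanzee diet, 0.91 ± 0.05 on cafeteria food, 0.80 ± 0.13 on fast food and 0.75 ± 0.14 on pellets. Its r over the 24 mice, with batch means removed, was 0.62 with Ang 1450717_at, 0.67 with Rnase4 and -0.48 with Rnh1. With Ang 1438937_x_at it was 0.46 and with Ang 1438936_s_at 0.25. With this measure in the model, fast food minus cafeteria was -0.71 ± 0.12 (SE) for Ang 1450717_at and -0.40 ± 0.12 for Rnase4. The chimpanzee minus pellet difference was 0.39 ± 0.17 for Ang 1450717_at, and for Rnase4 it was 0.10 ± 0.17, where it had been 0.39 without the measure. For Ang 1438937_x_at it was 0.12 ± 0.29, where it had been 0.47, and for Ang 1438936_s_at it was -0.02 ± 0.28. Human minus chimpanzee turned from -0.16 to 0.23 ± 0.22 for Ang 1450717_at and from -0.23 to 0.15 ± 0.17 for Rnase4, so no direction is given for that contrast. Its part in these differences beyond these values was not tested.

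Rnh1 went with the other array measure instead. Its r with the 90th percentile of the array was 0.81, where Ang 1450717_at had -0.07 and Rnase4 -0.02. The other Ang probe sets stood between, at 0.34 (1438937_x_at) and 0.46 (1438936_s_at).

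**Figure D4:**
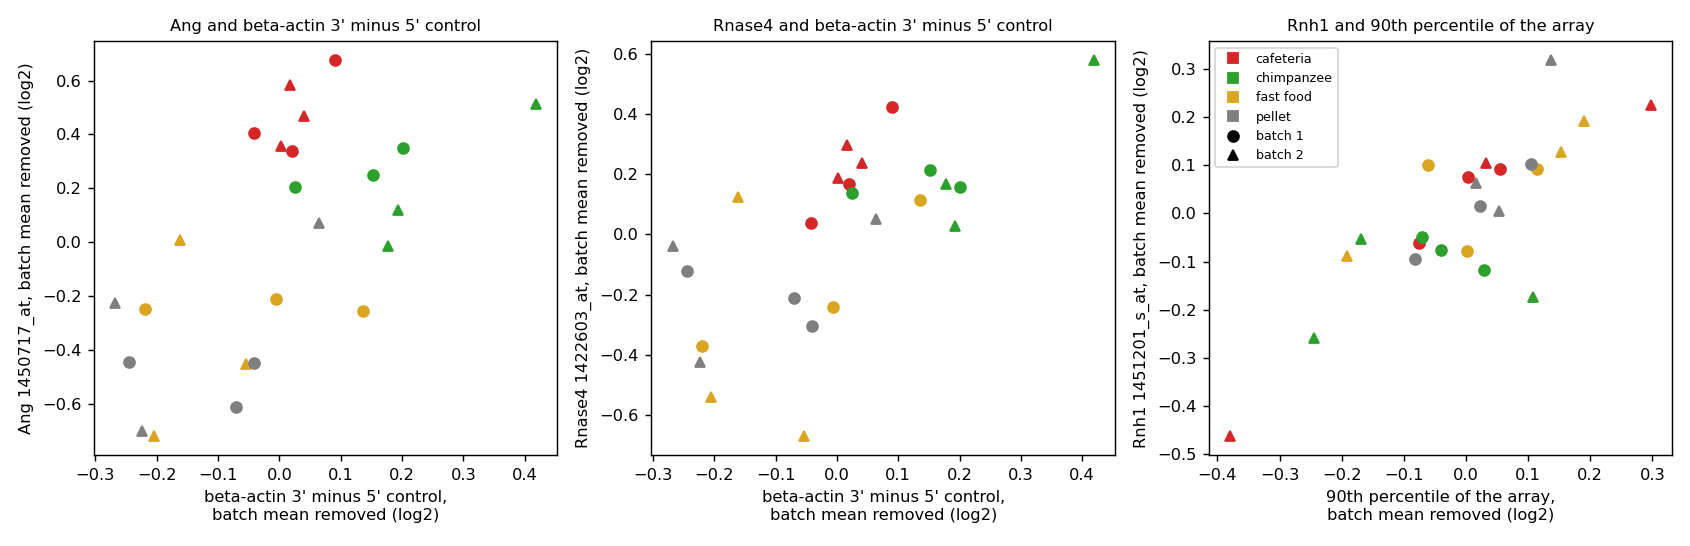
Ang (left) and Rnase4 (middle) against the beta-actin 3′ minus 5′ control difference, and Rnh1 (right) against the 90th percentile of the array, each with its batch mean removed (log2); colour gives the diet and shape the batch of the 24 mice. All 3 panels slope upward (r = 0.62, 0.67 and 0.81), and the lowest point for Rnh1 is the cafeteria mouse whose array had the lowest 90th percentile.

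Whole liver was measured, so fewer cells of a type and less RNA per cell cannot be told apart. The mean of 7 markers of Kupffer cells and macrophages, all of which passed the filter, was 5.85 on the chimpanzee diet (range over mice 5.15 to 6.20), 5.98 on cafeteria food (5.11 to 6.58), 6.24 on fast food (5.79 to 6.73) and 6.36 on pellets (5.90 to 6.61). It was thus lower in the diets where Ang and Rnase4 were higher, with overlapping ranges, and its part in their differences was not tested. The 6 stellate cell markers averaged 5.38 on the chimpanzee diet (4.94 to 5.57) and between 5.62 and 5.70 on the others. The 6 sinusoidal endothelial markers averaged between 5.36 and 5.49, and of 7 eosinophil and neutrophil markers 3 passed, with list means between 3.24 and 3.38. Epx and Prg2, which define eosinophils, were among those that did not pass.

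Batch was not used in the choice of the genes and could be tested. In limma with diet in the model, 4 of the 5 probe sets were called at an adjusted p under 0.05, all of them lower in batch 2, where 76.8% of all probe sets were called and 46.7% were called lower. Ang 1450717_at was 9.02 ± 0.42 (SD, n = 12) in batch 1 and 8.74 ± 0.45 in batch 2, a difference of -0.28 ± 0.09 (SE, limma adjusted p = 0.00649). The differences were -0.71 ± 0.15 for 1438937_x_at (limma adjusted p = 0.000145) and -0.63 ± 0.13 for 1438936_s_at (limma adjusted p = 0.000222). Rnh1 fell by 0.26 (limma adjusted p = 0.00112). Rnase4 differed by -0.18 ± 0.09 and did not pass (limma adjusted p = 0.0655). The median over all probe sets was -0.11. With the array's 90th percentile as a covariate, or after quantile normalization of the deposited values, 0 of the 5 were called (1.46% and 63.7% of all probe sets), with limma adjusted p of 0.0544 or more. The 90th percentile ranged from 6.42 to 6.62 in batch 1 and from 5.67 to 6.35 in batch 2. As it separates the batches, a model with both cannot tell them apart, and the SE of Ang 1450717_at rose to 0.16. No conclusion on batch is drawn from that covariate.

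The relatives of Ang were near the lower end of the array's range. Of 25 listed members of the RNase A family, 9 had a probe set and 3 passed the filter: Rnase1, the pancreatic type ribonuclease, Ang2, a mouse paralogue of Ang, and Rnase2a, an eosinophil ribonuclease. Their means over all mice were 3.66, 3.10 and 3.14. None of the 3 was called in human against chimpanzee, human against pellet, chimpanzee against pellet or fast food against cafeteria (limma), and at an unadjusted p under 0.05 only Ang2 stood out, in chimpanzee against pellet, at 0.35 ± 0.15 (SE, limma adjusted p = 0.172). Ang3, Ang4, Rnase2b, Ear3, Rnase6 and Rnase10 did not pass the filter. In fast food against cafeteria Ang2 differed by 0.01 ± 0.15, where Ang 1450717_at differed by -0.79. Paralogues of this family are close in sequence, and probes may be shared between them.

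The other related genes were taken from 4 lists: partners of angiogenin and of tRNA cleavage, other nucleases, chromosomal neighbours, and liver transcription factors. Together with the family, 100 genes were listed, 74 had a probe set and 62 passed the filter. All the lists, the family among them, were chosen with earlier results of these data known, so the counts and p-values of their genes are a description. Against pellets, the chimpanzee diet had 13 of the 62 called by limma, 4 higher and 9 lower. Of all probe sets, 8.7% were called (2.56% higher and 6.14% lower). With every gene read once, as the listed genes were, the share was 10.4% here and 4.98% in human against pellet. With the beta-actin 3′ minus 5′ difference as covariate, which was highest on the chimpanzee diet, 1 listed gene was called in place of 13, and 1.23% of all probe sets in place of 8.7%. The 13 genes are described below from the model without it. The median difference over the 62 was -0.02, and over all probe sets 0.00. The human diets against pellets had 3 called, 1 higher and 2 lower, where 4.03% of all were called (1.68% higher and 2.35% lower). In human against chimpanzee 0 were called by limma (0.767% of all) and 4 by the methods' procedure (4.23% of the probe sets it tested). At an unadjusted p under 0.05 there were 13, for which no share over all is given. In fast food against cafeteria, the contrast in which Ang differed by 1.72-fold, 0 were called by limma (0.0235% of all), with 6 at an unadjusted p under 0.05 and 0 by the methods' procedure.

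Among the 19 angiogenin partners and tRNA cleavage genes that passed the filter, 4 fell and 0 rose on the chimpanzee diet against pellets, with a median of -0.08 over the list. Egfr, the epidermal growth factor receptor, reported to bind angiogenin, fell by 0.68 (SE 0.16, limma adjusted p = 0.0078). It also fell by 0.72 in the human diets against pellets (SE 0.15, limma adjusted p = 0.00856). Its mean was 7.82 ± 0.21 (SD, n = 6) on pellets, 7.31 ± 0.36 on cafeteria food, 7.14 ± 0.31 on the chimpanzee diet and 6.90 ± 0.26 on fast food. A relation of Egfr to Ang was not tested. G3bp2, a stress granule protein, fell by 0.58 (limma adjusted p = 0.00823). Trdmt1, a tRNA methyltransferase that protects tRNA from cleavage, fell by 0.50 (limma adjusted p = 0.00491), and Alkbh3, a tRNA demethylase, fell by 0.40 (limma adjusted p = 0.0254). Trdmt1 was near the lower end of the array's range, with means of 3.44 on the chimpanzee diet and 3.94 on pellets.

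Of the other reported receptors of angiogenin, Plxnb2 and Sdc4 were not called. Plxnb2 (plexin B2) differed by -0.08 ± 0.18 (SE) in chimpanzee minus pellet and by 0.09 ± 0.18 in fast food minus cafeteria. Sdc4 (syndecan 4) differed by 0.06 ± 0.09 and -0.18 ± 0.09 in the same contrasts. Nsun2, a tRNA cytosine methyltransferase, differed by -0.10 ± 0.11 and 0.13 ± 0.11. In human minus chimpanzee, G3bp2 (0.39 ± 0.13, limma adjusted p = 0.163) and Alkbh3 (0.33 ± 0.10, limma adjusted p = 0.134) did not pass.

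Of the 19 other nucleases that passed the filter, 1 rose and 1 fell on the chimpanzee diet against pellets, where the list's median was 0.00. Dicer1, which cuts precursors of small RNAs, rose by 0.43 (SE 0.09, limma adjusted p = 0.003) from 4.64 ± 0.09 (SD, n = 6) on pellets to 5.07 ± 0.15. Parn, which removes poly(A) tails, fell by 0.57 (SE 0.14, limma adjusted p = 0.00857) and was read by an _x_at probe set. In human minus chimpanzee Dicer1 was -0.35 ± 0.09 (limma adjusted p = 0.0607) and Parn 0.40 ± 0.12 (limma adjusted p = 0.11).

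The chromosomal neighbours of Ang and Rnase4 gave 12 genes that passed, of which 2 fell on the chimpanzee diet against pellets and 0 rose, with a median of -0.11. They were Ttc5, a cofactor of the p53 response (-0.51 ± 0.16 SE, limma adjusted p = 0.0428), and Parp2, a DNA repair enzyme (-0.38 ± 0.09, limma adjusted p = 0.00948). In that contrast Ang 1450717_at was at 0.63 and Rnase4 at 0.39. The neighbours above 0 by most were Ndrg2 (0.31 ± 0.11, limma adjusted p = 0.0896) and the zinc transporter Slc39a2 (0.28 ± 0.10, limma adjusted p = 0.0963), neither of which passed. In fast food minus cafeteria the neighbours had a median of -0.06, and the one of smallest p was Mettl17 (-0.28 ± 0.11, limma adjusted p = 0.874).

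All 10 liver transcription factors with a probe set passed the filter, and 3 rose and 2 fell on the chimpanzee diet against pellets, with a median of 0.04. Cebpb, a C/EBP factor of the acute phase response, rose by 1.20 (SE 0.20, limma adjusted p = 0.000448), and by 1.00 in the human diets against pellets (SE 0.18, limma adjusted p = 0.00187). Its means were 8.12 ± 0.26 (SD, n = 6) on the chimpanzee diet, 7.93 ± 0.54 on fast food, 7.91 ± 0.49 on cafeteria food and 6.92 ± 0.32 on pellets. A relation of Cebpb to Ang was not tested. Foxa3 rose by 0.85 (limma adjusted p = 0.0199) and Hnf4a, a master regulator of hepatocyte genes, by 0.59 (limma adjusted p = 0.000914). Onecut1 fell by 1.26 (limma adjusted p = 0.00208) and Nr5a2, a nuclear receptor of bile acid synthesis, by 0.67 (limma adjusted p = 0.0279).

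**Figure D5:**
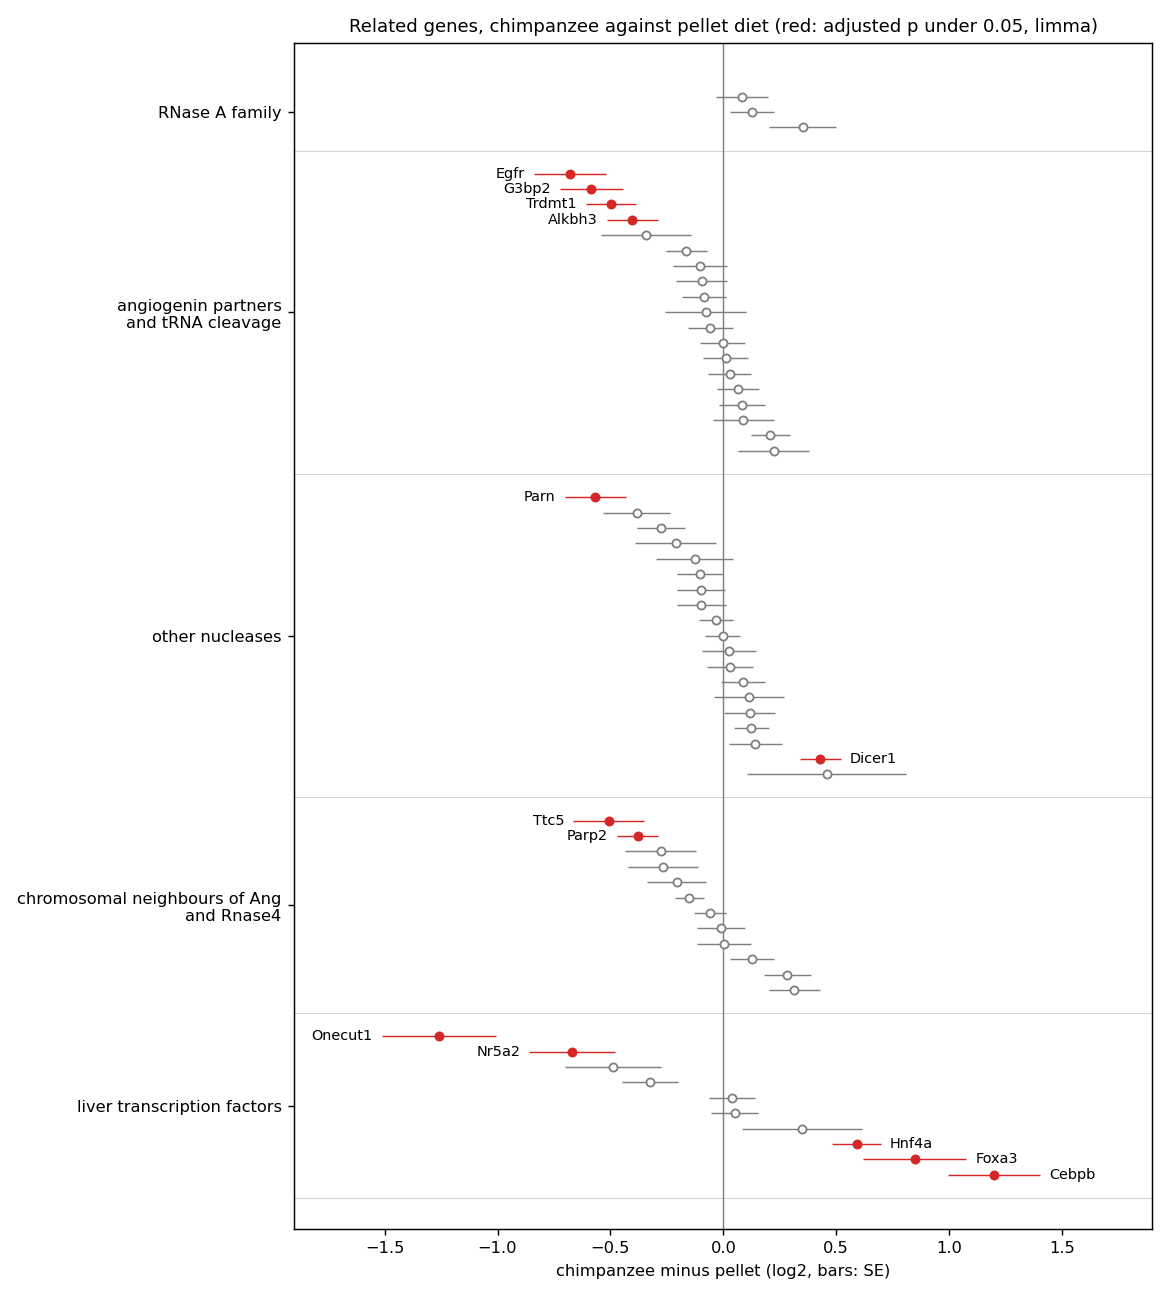
Differences of the chimpanzee minus the pellet diet (log2, bars are SE) for each listed related gene that passed the filter, by list; filled red points were called by limma at an adjusted p under 0.05. The 13 called genes are named, and range from -1.26 (Onecut1) to 1.20 (Cebpb), while the 3 RNase A family genes lie between 0.08 and 0.35 and were not called.

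The genes most like each of the 3 in their pattern were ranked by Pearson's r over the 24 mice with batch means removed, among 12600 named genes each read by its probe set of highest mean. For Ang 1450717_at they were Gne, an enzyme of sialic acid synthesis (r = 0.81), Igfbp2, a secreted binding protein for insulin-like growth factors (0.77), Hip1r (0.75), Brap (0.74) and Mtarc2 (0.74). Igfbp2 had a mean of 8.82 on cafeteria food, 8.12 on the chimpanzee diet, 7.91 on fast food and 7.46 on pellets. Each gene named for Ang had this order of diets, as Ang 1450717_at had, and all were picked by their r with it over these mice. Each of the 5 had a lower r with Ang than Rnase4 had.

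For Rnase4 the 5 were Gpld1, a phospholipase secreted by the liver (r = 0.79), Stard10, a lipid transfer protein (0.77), Cebpa, a C/EBP factor of the liver (0.73), Mtarc2 (0.73) and Hrg, the plasma protein histidine-rich glycoprotein (0.72). Mtarc2 was named for both Ang and Rnase4. For Rnh1 they were Myl12b, a myosin light chain (r = 0.91), Chmp4b (0.90), Ssbp1 (0.89), Polr2f (0.89) and Cript (0.89), none of which was named for Ang or Rnase4. These lists are over mice whose arrays share depth of signal and batch, and describe likeness only.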

How the data were processed

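Liver RNA of 24 mice was hybridised to Affymetrix mouse genome arrays, 1 per mouse. The authors made the deposited log2 values with rma in the affy package (background correction, quantile normalization, log transformation). The version of the package is not stated, nor which arrays were normalized together. The 90th percentile of the deposited arrays ranged from 5.67 to 6.62, although the methods name quantile normalization. What this range comes from was not tested. The number of arrays limits the precision. Groups and batches were taken from sample titles, and gene symbols from the platform annotation. The genes and gene lists were chosen with earlier results of these data known.

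Probe sets whose values exceeded 3.147, the overall median, in 6 or more of the 24 arrays were kept (25541 of 45101, with 64 control probe sets set aside), each as its own feature. Models were fitted with lmFit and eBayes in limma 3.58.1 (R 4.3.3), with batch as covariate and Benjamini-Hochberg adjustment over all kept probe sets. Human diets were compared within the 18 mice involved, and single diets in all 24. Listed genes were read by their kept probe set of highest mean. Named were all called listed genes, others of smallest p, those that failed the filter, and the 5 most alike per gene. The methods' procedure is an unmoderated linear model with diet and batch at an unadjusted p under 0.01, leaving out probe sets with a diet-by-batch interaction. It was run on the probe sets kept here, without the study's detection filter and without its choice of the smallest p per gene. Alternatives covered the filter, unit, batch, array weights, array range, RNA quality, normalization, replicate block and single mice. The model was tested on simulated data. Mice are separate animals, and no RNA was measured again. Gene positions and promoters came from RefSeq (GRCm38.p6).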

Additional observations from a re-analysis of the deposited data

Results flagged for a closer look

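In 7 of 72 groups of 6 mice, over the 5 probe sets of Ang, Rnase4 and Rnh1 and the 13 related genes called, a single mouse lay far from the other 5 by Dixon's criterion, which chance meets in about 1 in 20 groups. Rnh1 had 7.52 in cafeteria batch 2 replicate 3, with the others between 8.08 and 8.33. The same mouse was low for Parp2 at 3.82 (others 4.19 to 4.38) and for Nr5a2 at 6.40 (others 7.14 to 7.33), and its array had the lowest 90th percentile, 5.67. Egfr was low at 6.40 in fast food batch 1 replicate 2 (others 6.83 to 7.07), and Ttc5 at 5.12 in fast food batch 2 replicate 2 (others 5.65 to 5.80). Hnf4a was high at 10.02 in fast food batch 1 replicate 3 (others 9.34 to 9.51) and at 10.13 in cafeteria batch 1 replicate 3 (others 9.48 to 9.61). No mouse stood out in this way for any of the Ang probe sets or for Rnase4.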

How the results depend on the processing

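With the beta-actin 3′ minus 5′ difference as covariate, human minus chimpanzee turned to 0.15 for Rnase4 and 0.23 for Ang 1450717_at. Chimpanzee minus pellet became 0.39 for Ang 1450717_at and 0.10 for Rnase4. It went from 0.47 to 0.12 for Ang 1438937_x_at and from 0.14 to -0.02 for Ang 1438936_s_at. Ang 1438937_x_at human minus chimpanzee turned from 0.04 to -0.05 after quantile normalization, -0.03 with array weights and -0.06 with the 90th percentile. Ang 1438936_s_at human minus pellet turned from 0.26 to -0.06 in batch 2 alone. Rnh1 human minus pellet, -0.04 in the main model, turned to 0.03 in batch 1 alone, 0.0069 with array weights, 0.0036 with the beta-actin covariate and 0.03 without the 4 arrays of lowest 90th percentile. Leaving out 1 mouse at a time, fast food minus cafeteria stayed between -0.85 and -0.70 for Ang 1450717_at and between -0.57 and -0.40 for Rnase4. The 4 of 5 probe sets called for batch became 2 of 3 with every gene read once, 0 after quantile normalization and 0 with the 90th percentile as covariate. They became 3 without diet in the model, where Ang 1450717_at was not called (limma adjusted p = 0.13), and 5 with the beta-actin covariate, where Rnase4 was called (limma adjusted p = 0.0156). The batch difference turned for Rnh1 to 0.082 after quantile normalization, and with the 90th percentile to 0.11 for Rnh1, 0.0058 for Ang 1438937_x_at and 0.13 for Ang 1438936_s_at. The 90th percentile separates the batches, so no direction is read from the batch differences under that covariate. Leaving out 1 mouse, it was called for 4 to 5 probe sets.

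The counts of related genes called are given with the share of all probe sets called in the same setting. In human against chimpanzee, 0 in the main model (0.767%) became 1 with every gene once (1.49% of genes) and 1 with the replicate block (0.619%). There were 2 after quantile normalization (2.3%), 9 with array weights (6.49%) and 4 with the 90th percentile (3.19%). The methods' procedure gave 4 (4.23%). All 24 mice gave 2 (1.92%), and leaving out the 4 arrays of lowest 90th percentile gave 1 (1.54%). Leaving out 1 mouse gave 0 to 4. There was 1 without chimpanzee batch 2 replicate 3 (0.814%) and 2 without fast food batch 2 replicate 2 (1.85%). There were 2 without cafeteria batch 1 replicate 3 (1.02%) and 1 without cafeteria batch 2 replicate 2 (0.552%). Without cafeteria batch 2 replicate 3 there were 4 (2.98%). In human against pellet, 3 (4.03%) became 0 in batch 2 alone (0.114%) and 5 after quantile normalization (6.97%). It became 6 with array weights (8.05%) and 6 with the 90th percentile (8.88%). Without 1 mouse there were 2 to 3 (2.64% to 5.21%). In chimpanzee against pellet, 13 (8.7%) became 6 without batch in the model (2.83%) and 7 in batch 1 alone (6.56%). It became 0 in batch 2 alone (0.125%) and 1 with the beta-actin covariate (1.23%). Without 1 mouse there were 9 to 15 (5.98% to 10.8%). In fast food against cafeteria the count was 0 under each alternative (0% to 1.19%). The batch alone settings have fewer mice, and the cause of the other changes was not tested. Probe sets called in all ranged from 0 (batch 2 alone) to 1657 (array weights) around 196 in human against chimpanzee, from 29 (batch 2 alone) to 2269 (90th percentile) around 1030 in human against pellet, from 32 (batch 2 alone) to 3775 (array weights) around 2221 in chimpanzee against pellet, and from 0 to 297 (the methods' procedure) around 6 in fast food against cafeteria. Deviations of mice with the same batch and replicate number had r between -0.64 and 0.42 (median 0.01), over 0.1 in 12 of 36 pairs. For other numbers of the same batch r was between -0.57 and 0.63 (median -0.02), over 0.1 in 25 of 72 pairs. Pairing by replicate number was thus not seen, but litters cannot be traced, so it is not excluded. The replicate block changed the other counts of related genes only in human against pellet, from 3 to 2.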
